A study of Mus musculus with 3 samples.

Results

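The regions described here held a peak of accessible chromatin in control mouse embryonic stem cells and none in the cell lines that expressed a Halo-tagged Sox2 protein. They were chosen by merging all ATAC-seq peaks of the 3 libraries that overlap by 1 bp or more, and by keeping the merged regions on chromosomes 1 to 19 and X that held a control peak, no Halo-Sox2 peak and no Halo-Sox2a peak. There were 13272 such control-only regions among 130604 merged regions (10.2%), and among the 71153 regions that held a control peak (control-held regions) they made up 18.7%. Each consisted of 1 control peak, and together they covered 4.18 Mb of the 39.8 Mb under control peaks on these chromosomes. Presence and absence of a peak chose the regions, so these counts are a description and carry no test. Another 43 control peaks lay on other chromosomes and were not used.

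All 3 lines derived from CGR8, a mouse embryonic stem cell line, and grew in serum with leukemia inhibitory factor, the GSK3 inhibitor CHIR99021 and the MEK inhibitor PD184352. The control line SES11 had no doxycycline-inducible transgene, SES4.1 expressed Halo-Sox2 after 20 h in 300 ng/mL doxycycline, and SES5.1 expressed Halo-Sox2a, which the labels do not describe, after 20 h in 70 ng/mL. Both transgenic lines were labelled with 50 nM of a Halo dye and sorted through the same fluorescence gate, whereas no dose, dye or sort is given for SES11. Each group had 1 library. The labels do not say whether a line is 1 clone, so effects of the Sox2 proteins, doxycycline, staining, sorting and the line itself cannot be told apart, and no p-value can be given.

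ATAC-seq marks DNA that the Tn5 transposase can reach, which is mostly promoters, enhancers and insulators free of nucleosomes. Sox2 is an HMG-box transcription factor that binds with Oct4 at enhancers of embryonic stem cells and can bind sites within nucleosomes. A peak list records which sites passed a threshold in a library, so a region missing from a list is not a measured loss of accessibility there.

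Of the 10 control-only regions with the highest score at ends of protein-coding genes, 5 overlapped a promoter window of that gene in the RefSeq table. The 250 bases before the start of those 5 genes are shown because they are the strongest of these peaks that touch a listed promoter, and that of Zfp42 is shown as a promoter accessible in all 3 libraries, chosen after its values were seen. Sequences are RefSeq's, of build GRCm38.p6, read 5′ to 3′ on the strand of the gene, with each CpG in capitals.
Cd244a: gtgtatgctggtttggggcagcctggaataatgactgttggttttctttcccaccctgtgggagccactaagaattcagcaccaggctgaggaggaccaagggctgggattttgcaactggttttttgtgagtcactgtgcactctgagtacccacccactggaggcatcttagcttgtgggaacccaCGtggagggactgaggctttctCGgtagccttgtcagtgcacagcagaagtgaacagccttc
Ssbp4: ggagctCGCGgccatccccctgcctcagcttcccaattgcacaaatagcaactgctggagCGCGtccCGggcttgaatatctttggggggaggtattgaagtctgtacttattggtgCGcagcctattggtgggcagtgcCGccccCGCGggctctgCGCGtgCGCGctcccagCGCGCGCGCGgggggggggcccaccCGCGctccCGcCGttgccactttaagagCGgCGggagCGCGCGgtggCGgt
H2-T22: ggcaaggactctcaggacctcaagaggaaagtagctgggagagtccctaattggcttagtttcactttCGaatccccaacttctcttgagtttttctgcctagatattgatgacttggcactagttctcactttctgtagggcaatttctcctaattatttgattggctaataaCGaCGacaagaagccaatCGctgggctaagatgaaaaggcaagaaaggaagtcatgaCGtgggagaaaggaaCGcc
H2ac19: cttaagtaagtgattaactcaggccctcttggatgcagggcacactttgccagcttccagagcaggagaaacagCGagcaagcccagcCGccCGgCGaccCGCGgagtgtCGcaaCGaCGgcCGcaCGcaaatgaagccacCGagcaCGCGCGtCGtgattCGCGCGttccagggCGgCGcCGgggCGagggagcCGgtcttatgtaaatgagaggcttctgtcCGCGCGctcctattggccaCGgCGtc
Krtap28-13: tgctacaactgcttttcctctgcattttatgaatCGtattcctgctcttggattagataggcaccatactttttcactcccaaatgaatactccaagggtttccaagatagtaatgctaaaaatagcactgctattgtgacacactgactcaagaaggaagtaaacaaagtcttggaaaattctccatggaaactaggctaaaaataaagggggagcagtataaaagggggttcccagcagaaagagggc
Zfp42: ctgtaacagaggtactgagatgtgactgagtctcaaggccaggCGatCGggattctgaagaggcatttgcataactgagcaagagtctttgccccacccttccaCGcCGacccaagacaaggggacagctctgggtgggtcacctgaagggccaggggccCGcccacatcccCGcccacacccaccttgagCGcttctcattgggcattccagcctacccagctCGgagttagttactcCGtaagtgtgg
Cd244a (chr1:171558943-171559192, plus strand), a receptor of natural killer cells, had 2 CpG in these 250 bases. Krtap28-13 (chr1:83060680-83060929, plus strand), a hair keratin-associated protein, had 1. H2-T22 (chr17:36042743-36042992, minus strand), a non-classical class I histocompatibility gene, had 6. Ssbp4 (chr8:70608315-70608564, minus strand), a single-stranded DNA binding protein, had 28, and the histone H2A gene H2ac19 (chr3:96240375-96240624, minus strand) had 29. Zfp42 (chr8:43307010-43307259, minus strand), the naive pluripotency marker also called Rex1, had 9. The 5 promoters thus ranged from CpG-poor to CpG-rich. H2-T22 and H2ac19 belong to families of near-identical copies, which makes the placement of their reads uncertain.

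Control-only regions were weak peaks of the control list. Their scores, whole numbers given by the authors without a stated scale, ran from 13 to 385 with quartiles of 27, 37 and 59, whereas the other control-held regions had a median of 105. As a percentile of the control list, their quartiles were 8.73, 18.5 and 35.8, against a median of 59.3 for the others. Above percentile 50 lay 1385 control-only regions (10.4%), and above percentile 75 lay 109 (0.821%). They were narrow as well: their median width was 277 bp, between quartiles of 223 and 363 bp, against 455 bp over the peaks of the control list. Regions held by Halo-Sox2a only had a close median of 293 bp, and those of Halo-Sox2 only had 377 bp. The 843 bp of regions in all 3 lists is the width of merged regions, which span peaks of several lists, and is not a like measure.

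The share of control-held regions that were control-only fell steadily with the control score. In the lowest score decile (scores 13 to 27) it was 57.8% (4423 of 7656), in the fifth decile 15.9%, in the eighth 2.49% (179 of 7181), and in the highest 0.0826% (6 of 7261). Below percentile 50 as a whole it was 34.0% (11887 of 34972). The control list was also the smallest of the 3, with 72638 peaks against 88898 for Halo-Sox2 and 83995 for Halo-Sox2a, and the depth of the libraries is unknown. With the lists cut to equal size by score there were 16949 control-only regions, and 11566 regions of Halo-Sox2a only against 15993. This cut left the control list whole and shortened the transgene lists. The number of control-only regions could therefore only rise, and its rise is no result. The part of depth in the membership was not tested.

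**Figure D1:**
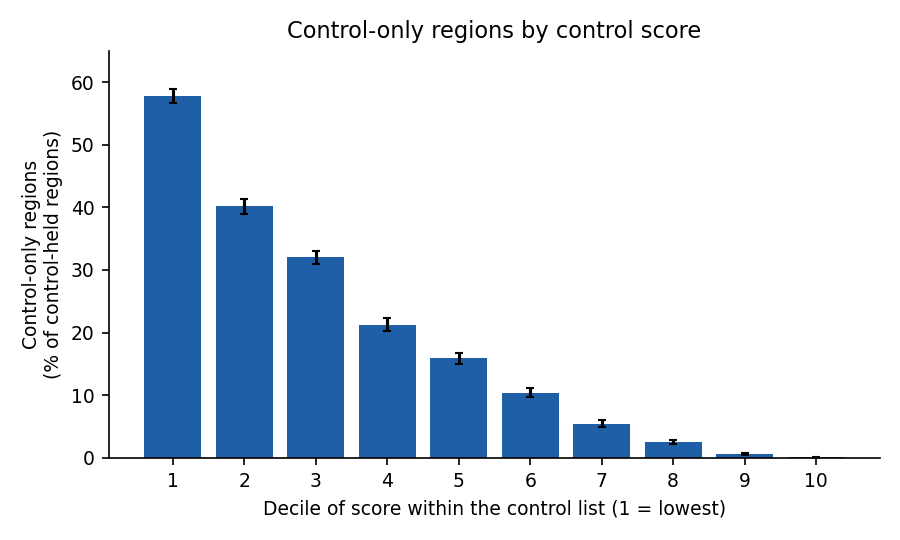
Share of control-held regions that were control-only (y axis, percent) in each decile of score within the control list (x axis, 1 is the lowest). Bars are shares and error bars are 95% Wilson intervals, which cover counting error only. The share falls from 57.8% to 0.0826%.

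Most control-only regions did not sit beside a peak of the other lists. The median distance to the nearest Halo-Sox2 or Halo-Sox2a peak was 6.24 kb (quartiles 2.16 and 16.0 kb), against 9.78 kb to the nearest other control peak. Within 500 bp of a transgene-line peak lay 1009 regions (7.60%), and more than 50 kb from any lay 773 (5.82%). The medians to each list alone were similar, 9.05 kb to Halo-Sox2 and 8.52 kb to Halo-Sox2a. At the edge of the rule, the 53 control-only regions with such a peak at most 10 bp away had a median score of 27 and a median width of 243 bp, while the 72 control peaks that overlapped one by at most 10 bp had 30 and 264 bp.

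The labelled cell type was checked against marker genes. A control peak lay within 1 kb of an end of 8 of 10 stem cell markers, all but Pou5f1 and Esrrb, at percentiles from 53.9 to 99.8, the highest at Zfp42. At Esrrb, which has no peak at either outer end of the gene, a promoter window inside the gene lay under a control peak at percentile 71.0. Over all 21627 protein-coding genes, 63.5% had a control peak at an end. Of 8 fibroblast markers 4 had one, at percentiles up to 55.3, and Col1a1, Col3a1, Lum and Dcn had none. A control peak was also found at 3 of 4 trophoblast, 3 of 4 primitive endoderm and 4 of 4 neural markers, at percentiles from 12.7 to 83.9. Accessibility at a gene end does not show expression, and with so few markers the counts do not set stem cell genes apart from the 63.5%. A contribution of other cells was not tested.

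Control-only regions lay less often inside genes than any other class of region. The midpoint was inside a gene for 51.4% (95% Wilson interval 50.6 to 52.3%), against 60.4% for Halo-Sox2a only, 59.6% for Halo-Sox2 only, 63.7% for both proteins without the control and 65.5% for all 3 lists. The classes that shared a control peak with 1 other list were nearest, with 53.5% for Halo-Sox2a and control and 57.7% for Halo-Sox2 and control. The share was below that of Halo-Sox2a only on each of the 20 chromosomes. The gap was widest in relative terms on the X, where 33.8% of control-only and 50.7% of Halo-Sox2a-only regions were inside genes. Against Halo-Sox2a only, the intervals did not overlap and the peaks were of similar width and within-list percentile (18.5 and 19.3), but with 1 library a group the difference has no replicate check.

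At gene ends, where promoters lie, the share of control-only regions was near that of Halo-Sox2a only, above that of Halo-Sox2 only and far below that of all 3 lists. Their midpoint was within 1 kb of either end of a gene for 9.66% (9.17 to 10.2%), with 9.43% for Halo-Sox2a only (8.99 to 9.89%), 6.66% for Halo-Sox2 only and 35.0% for all 3 lists. Starts and opposite ends were counted for the 17273 of 21627 protein-coding genes with a single known strand, on 19 chromosomes. The genes left out can only lower these shares. Of control-only regions there, 1.99% (1.77 to 2.25%) lay within 1 kb of a start and 1.89% (1.67 to 2.14%) within 1 kb of the opposite end. Starts and opposite ends were thus about equally frequent, whereas regions in all 3 lists had 22.5% at starts and 2.74% at opposite ends. Regions of Halo-Sox2a only had 1.41% at starts, an interval (1.23 to 1.61%) below that of the control-only regions, and 2.40% at opposite ends. Regions of Halo-Sox2 only had 0.970% at starts (0.866 to 1.09%) and 1.69% at opposite ends.

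**Figure D2:**
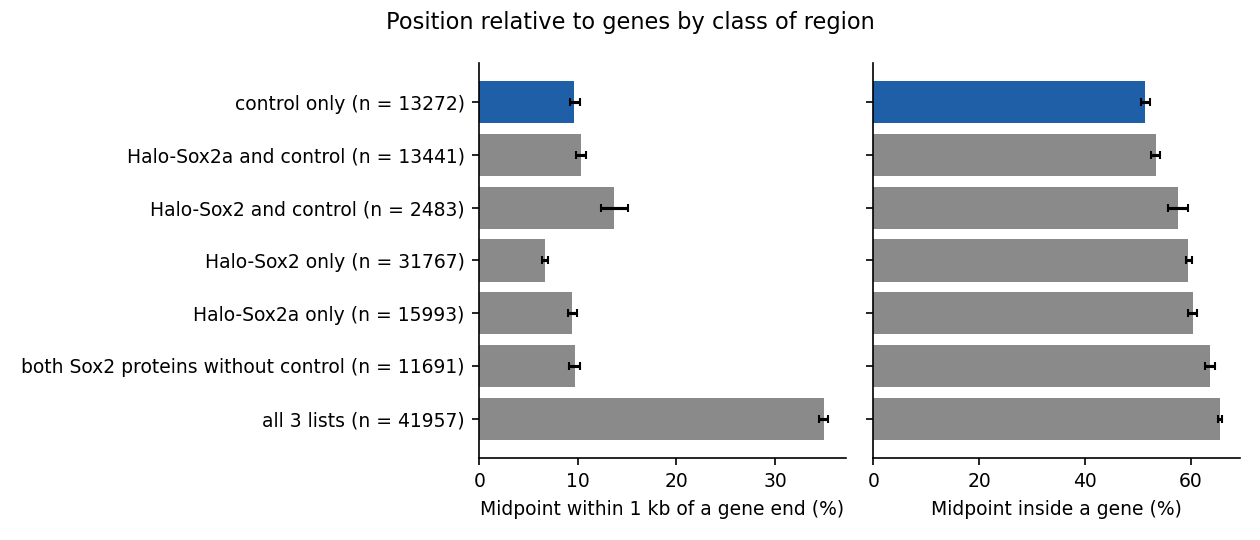
Share of regions (x axes, percent) with the midpoint within 1 kb of a gene end (left) and inside a gene (right), for the 7 classes of merged region. Bars are shares, error bars 95% Wilson intervals, and n the number of regions. Control-only regions (blue) have 9.66% at gene ends and, with 51.4%, the lowest share inside genes.

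The position differed from that of other control-held regions in the same decile of control score. A merged region takes the highest score of its control peaks, of which the other regions held up to 13 and control-only regions 1. In the lowest score decile, 10.0% of control-only regions and 12.6% of the other control-held regions were at a gene end. In the fifth decile these shares were 8.48% and 19.1%, and in the eighth 7.26% (13 of 179) and 33.7%. The others rose with the score and the control-only regions did not, so even strong control-only peaks seldom marked gene ends. Inside genes the shares were 52.4% against 60.6% in the lowest decile, 49.7% against 60.6% in the fifth and 44.7% (37.6 to 52.0%) against 63.5% in the eighth. Region width differed too, with medians of 237 bp against 497 bp in the lowest decile. The second value is that of merged regions, which also span the peaks of other lists, so it does not measure the control peaks themselves. The part of width and merging in these shares was not tested.

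**Figure D3:**
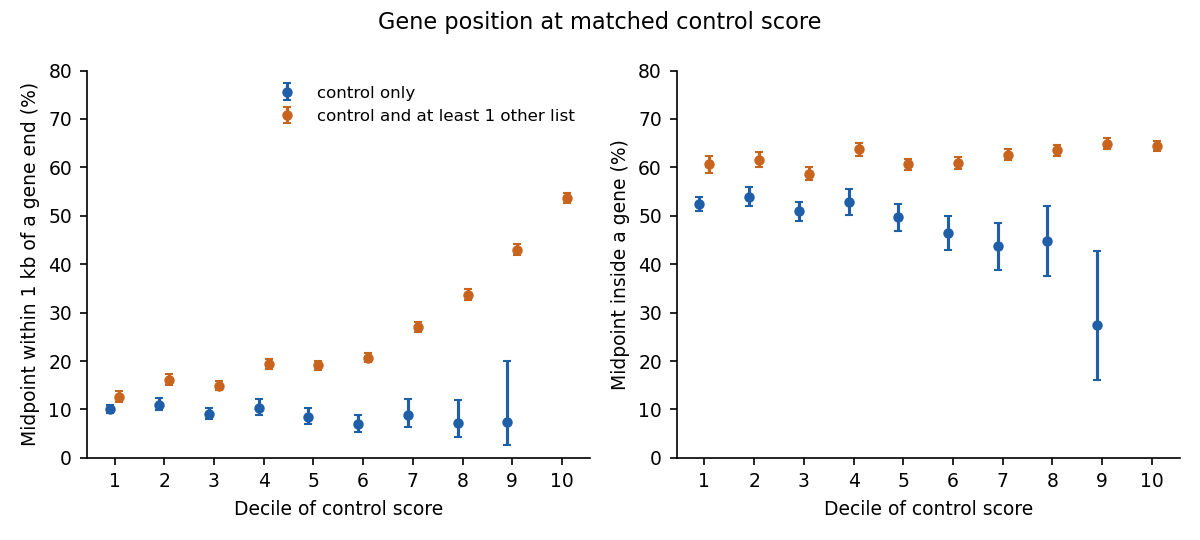
Share at gene ends (left) and inside genes (right), in percent, by decile of control score for control-only regions (blue) and for control-held regions shared with at least 1 other list (orange). Points are shares with 95% Wilson intervals, and a decile with under 20 regions is not drawn. At gene ends the orange points rise from 12.6% to 53.7% while the blue points show no such rise, with 10.0% in the lowest decile and 7.50% in the ninth.

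Away from genes, control-only regions reached into gene-poor DNA. More than 100 kb from the nearest protein-coding gene lay 22.2% of them, against 11.6% for Halo-Sox2a only, 18.4% for Halo-Sox2 only and 8.75% for all 3 lists. Those outside protein-coding genes were a median of 53.1 kb from one, against 27.0 kb for Halo-Sox2a only and 56.6 kb for Halo-Sox2 only. In 1 Mb windows without a protein-coding gene, 36.6% (34.8 to 38.5%) of control-held regions were control-only. The share was 23.0% with 1 to 5 genes, 16.5% with 6 to 20 and 14.5% (13.9 to 15.1%) with more than 20. Below control percentile 50 the order was the same, from 56.6% to 29.0%. In number, however, there were more control-only regions per window in gene-rich DNA, 7.08 with more than 20 genes against 4.23 with none, because all control peaks were denser there.

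By chromosome the control-only share of control-held regions ran from 15.2% on chromosome 19 (13.6 to 17.0%) to 21.0% on chromosome 8 (1053 of 5013, 19.9 to 22.2%), with 20.8% on chromosome 12 (19.3 to 22.3%) and 18.5% on X. Chromosome 8 also stood highest below control percentile 50, at 39.7%. It held 7.03% of all control peaks, against 6.58% of Halo-Sox2 and 6.51% of Halo-Sox2a peaks, and a difference in copy number between the lines was not tested.

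Among 1625 windows of 1 Mb with at least 20 control-held regions the share had quartiles of 11.9%, 16.7% and 22.0%, and 41 windows reached 40%. The highest shares were in gene-poor windows. On chromosome 8, 16 of 27 control-held regions between 51 and 52 Mb (59.3%) were control-only, 13 of 23 between 97 and 98 Mb and 12 of 22 between 50 and 51 Mb, all without a protein-coding gene. The window at 5 to 6 Mb on chromosome 9, with the inflammatory caspase genes Casp1, Casp4 and Casp12, had 14 of 24, and that at 26 to 27 Mb on chromosome 4, with the mannosidase gene Manea, had 11 of 20. The windows with the most control-only regions included clusters of related genes, and the placement of reads there was not tested. A cluster of zinc finger genes at 147 to 148 Mb on chromosome 4 had 24 of 65, and the part of the immunoglobulin heavy chain locus at 114 to 115 Mb on chromosome 12 had 21 of 40. The window at 62 to 63 Mb on chromosome 4 had 20 of 57, and its 18 protein-coding genes include the major urinary protein genes Mup3, Mup20 and Mup21. Of these 20, however, 7 lay between 62350001 and 62400000, at Fkbp15, Slc31a1 and Cdc26.

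Control-only regions were spread thinly, except at a pair of genes. Of the 11204 windows of 50 kb with a control-only region, 9399 had 1, 1591 had 2, and only 6 had 5 or more. The window at 49700001 to 49750000 on chromosome 18, inside Dtwd2, had 15, and that at 154450001 to 154500000 on chromosome 2, inside Cbfa2t2, had 12. The next, on chromosome 4 at Fkbp15, Slc31a1 and Cdc26, had 7. The Dtwd2 and Cbfa2t2 windows each held 21 control-held regions, the most among 32198 windows, where the median was 2 and the next highest 13. Cbfa2t2 encodes a transcriptional corepressor that partners Prdm14 in pluripotent cells, and Dtwd2 a tRNA-modifying enzyme.

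Cbfa2t2 (chromosome 2, 154436098 to 154539356, 103 kb) held 15 control-only regions among 29 control-held ones. Along the gene their control scores were 20, 20, 42, 16, 14, 27, 20, 27, 20, 20, 14, 27, 42, 20 and 27, all below percentile 25. They lay between 154442626 and 154492531, within 49.9 kb of the part near the lower-coordinate end. Another 10 regions in the gene were held by Halo-Sox2a and the control and 4 by all 3 lists, so Halo-Sox2a had peaks at 14 of the 29 positions and Halo-Sox2 at 4. More of the control peaks here were thus missing from the Halo-Sox2 list than from the Halo-Sox2a list.

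Dtwd2 (chromosome 18, 49696145 to 49755651, 59.5 kb) held 15 control-only regions among 22 control-held ones. Their control scores along the gene were 27, 27, 20, 34, 27, 14, 14, 20, 20, 34, 14, 14, 14, 59 and 36, with 14 of the 15 below percentile 25. They spanned 48.5 kb, nearly the whole gene. Of the other control-held regions in the gene, 4 were in all 3 lists and 3 were shared with Halo-Sox2, and none was shared with Halo-Sox2a alone, so the order of the transgene lists was the opposite of that at Cbfa2t2. In density, Dtwd2 had 25.2 and Cbfa2t2 14.5 control-only regions per 100 kb, against a median of 1.09 over the 105 protein-coding genes with 5 or more. No other class of region reached such a number in a 50 kb window, the highest being 10 for all 3 lists and 7 each for Halo-Sox2 only and for Halo-Sox2a and control. The densest window of the last class is the same Cbfa2t2 window.

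**Figure D4:**
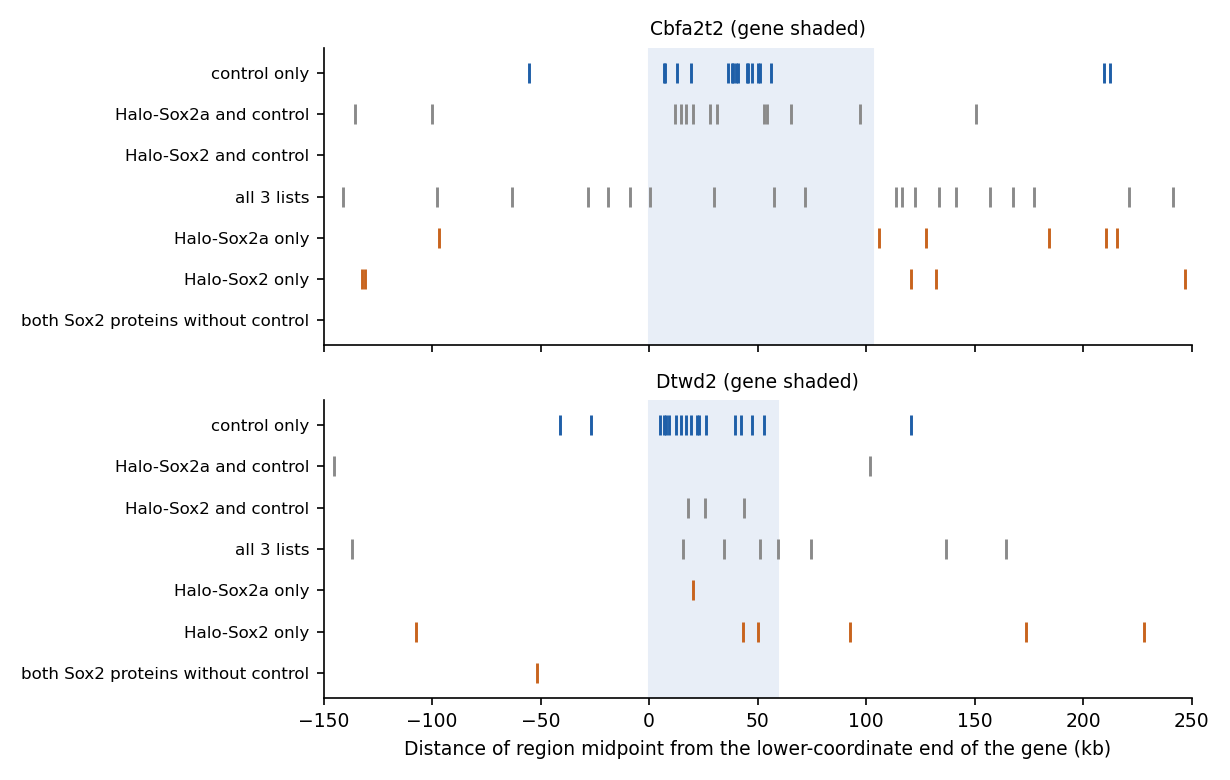
Positions of merged regions around Cbfa2t2 (top) and Dtwd2 (bottom), as distance of the midpoint from the lower-coordinate end of the gene (x axis, kb), with a row for each class of region. Each tick is 1 region and the shaded span is the gene. Inside each gene 15 control-only ticks (blue) crowd together, and few lie outside it.

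The other protein-coding genes with the most control-only regions were long. The glypican gene Gpc5 (1433 kb) held 16 of 29 control-held regions, the ADP-ribose hydrolase gene Macrod2 (1998 kb) 16 of 49 and Galntl6 (1140.0 kb), of the GalNAc-transferase family, 13 of 23. Next came the polarity gene Pard3 with 13 of 35, Auts2 with 12 of 40, the junction scaffold gene Magi1 with 12 of 32, the T-cadherin gene Cdh13 with 11 of 35 and the ubiquitin ligase gene Marchf1 with 11 of 26. All 8 were 549 kb or longer. In all, 3782 of the 14245 protein-coding genes with a control-held region inside held a control-only one.

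The single control-only region with the highest score, 385 at percentile 95.5, lay inside Cfi, which encodes complement factor I, 1417 bp from an end of the gene (chromosome 3, 129837923 to 129838365), and the nearest peaks of the other lists were 1.59 kb (Halo-Sox2) and 1.55 kb (Halo-Sox2a) away. A region between genes on chromosome 14 (82466638 to 82467121, score 342) was 172 kb from a Halo-Sox2 peak and 57.0 kb from a Halo-Sox2a peak. One inside Magi1 (chromosome 6, 93979147 to 93979746, score 328) was only 0.314 kb from a Halo-Sox2 peak. The zinc finger genes Zfp987 (score 297) and Zfp109 (score 277) and the potassium channel gene Kcnc2 (score 262) also held one of the top 10. None of the 10 was within 1 kb of a gene end.

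Of the 10 named regions at ends of protein-coding genes, 9 are given here, and the one left out has the highest score. The region 155 bp from an end of Sult6b2, a sulfotransferase, had a score of 179 (percentile 78.2). Cd244a had 154, Ssbp4 153, the zinc finger gene Zfp993 152, the epidermal keratin gene Krt1 and H2-T22 146 each, the co-chaperone gene Dnajc18 140, H2ac19 138 and Krtap28-13 136. Near Krt1, Ssbp4 and H2ac19 a peak of another list lay within 1 kb, at 0.641, 0.816 and 0.589 kb, and around H2-T22 and Krtap28-13 the nearest were 9.74 and 14.2 kb away.

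Near pluripotency genes the control-only share was below that of all control-held regions, as it was near most gene families. Lists of genes were read as the regions with a midpoint within 50 kb of a listed gene, and each share is set against 18.7% for all control-held regions and, below control percentile 50, against 34.0%. The 18.7% includes gene-poor DNA. By 1 Mb window the share was 36.6% without a protein-coding gene, 16.5% with 6 to 20 and 14.5% with more than 20. Of 85 gene families grouped by symbol, only 10 had a share above 18.7% within 20 kb. A share below 18.7% is therefore not particular to a list. Near 20 pluripotency genes, 20 of 198 control-held regions were control-only (10.1%, 6.63 to 15.1%; 21.1% below percentile 50). Dppa3, a germ cell and maternal factor, had 4 of 13 and Nanog, a core factor of naive cells, 3 of 15, both at or under percentile 29.3. The 50 kb surroundings of these neighbouring genes overlap. Sox2 itself had 1 of 7, at percentile 3.32, and Klf2, Sall4, Utf1, Prdm14, Dppa5a and Tdgf1 had none.

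Genes of the pathways that the culture medium acts on gave shares below 18.7%, for the ERK response within the counting interval. Most of the 85 gene families also lay below 18.7%, with 10 above it, so this does not set these pathways apart. Near 12 genes of the LIF and STAT3 pathway, 7 of 96 control-held regions were control-only (7.29%, 3.58 to 14.3%), and below percentile 50 it was 14.3% (6.72 to 27.8%). Near 14 Wnt target genes the count was 17 of 141 (12.1%, 7.67 to 18.5%), and 22.4% (14.1 to 33.7%) below percentile 50, with Lef1, a nuclear effector of Wnt signals, at 3 of 21. Near 12 genes of the ERK response it was 13 of 105 (12.4%, 7.38 to 20.0%), and 22.9% (13.3 to 36.5%) below percentile 50, so that both intervals include the shares over all control-held regions. The ERK inhibitor gene Spred1 had 5 of 11.

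Lineage genes differed among themselves. Near 16 neural genes 7 of 109 control-held regions were control-only (6.42%, 3.15 to 12.7%), the lowest share among the lists, and near 12 mesendoderm genes 8 of 83 (9.64%, 4.97 to 17.9%). Below percentile 50 these lists had 6 of 46 (6.12 to 25.7%) and 7 of 42 (16.7%, 8.32 to 30.6%). Formative genes, which act between the naive and primed states, gave 26 of 110 (23.6%, 16.7 to 32.4%), and 39.3% (28.1 to 51.9%) below percentile 50, intervals that include 18.7% and 34.0%. The N-cadherin gene Cdh2 had 6 of 13, the DNA methyltransferase gene Dnmt3a 5 of 17 and the POU factor gene Pou3f1 4 of 9. Trophoblast genes gave 14 of 99 (14.1%), with the TEAD factor gene Tead4 at 3 of 14, primitive endoderm genes 11 of 73 (15.1%) and germline genes 10 of 56 (17.9%), with Stra8, a gatekeeper of meiosis, at 3 of 9. Fibroblast genes gave 11 of 62 (17.7%), with Vim at 3 of 7. Genes of the 2-cell-like state had 2 of 15. Below percentile 50 the shares were 28.6% for trophoblast (17.8 to 42.4%), 25.6% for primitive endoderm (14.6 to 41.1%), 31.8% for germline (16.4 to 52.7%) and 33.3% for fibroblast genes (19.2 to 51.2%), each with an interval that includes 34.0%.

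The 39 Hox genes gave 14 of 99 (14.1%, 8.61 to 22.3%), and below percentile 50 11 of 74 (14.9%, 8.51 to 24.7%) against 34.0%. Hoxb3 and Hoxb4 each had 5 control-only regions within 50 kb, Hoxb1 and Hoxb2 had 4, and Hoxb5 to Hoxb9 had 3. These counts overlap between neighbouring genes of a cluster. The genes from Hoxc8 to Hoxc13 had none.

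The highest shares among the lists were found near long neuronal genes and chemoreceptor genes. Near 12 long neuronal genes 82 of 312 control-held regions were control-only (26.3%, 21.7 to 31.4%; 45.8% below percentile 50), and each of the 12 had at least 5. The presynaptic adhesion gene Nrxn3 had 13 of 39, the lipoprotein receptor-related gene Lrp1b 9 of 22 and the synaptic scaffold gene Dlg2 8 of 37. Near olfactory, vomeronasal and trace amine receptor genes the count was 269 of 956 (28.1%, 25.4 to 31.1%; 50.4% below percentile 50). By family it was 26.1% for Olfr, 29.3% for Vmn1r and 36.7% (29.6 to 44.5%) for Vmn2r genes. The lists differ in gene density. The control-held regions near long neuronal genes lay in 1 Mb windows with a median of 1 protein-coding gene and those near chemoreceptor genes in windows with a median of 25, against 9 over all control-held regions. In windows with 5 or fewer coding genes lay 80.1% of the first, 2.62% of the second and 31.5% of all control-held regions. Over all control-held regions the control-only share was 23.0% in windows with 1 to 5 coding genes and 36.6% in those with none. Below percentile 50 these were 39.2% and 56.6%. The intervals of the long neuronal list (37.8 to 54.0% below percentile 50) include 23.0% and 39.2%, so its share is not set apart from that of gene-poor DNA. With more than 20 coding genes the share was 14.5%. Many receptor genes are near-identical copies, and the placement of reads there was not tested.

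**Figure D5:**
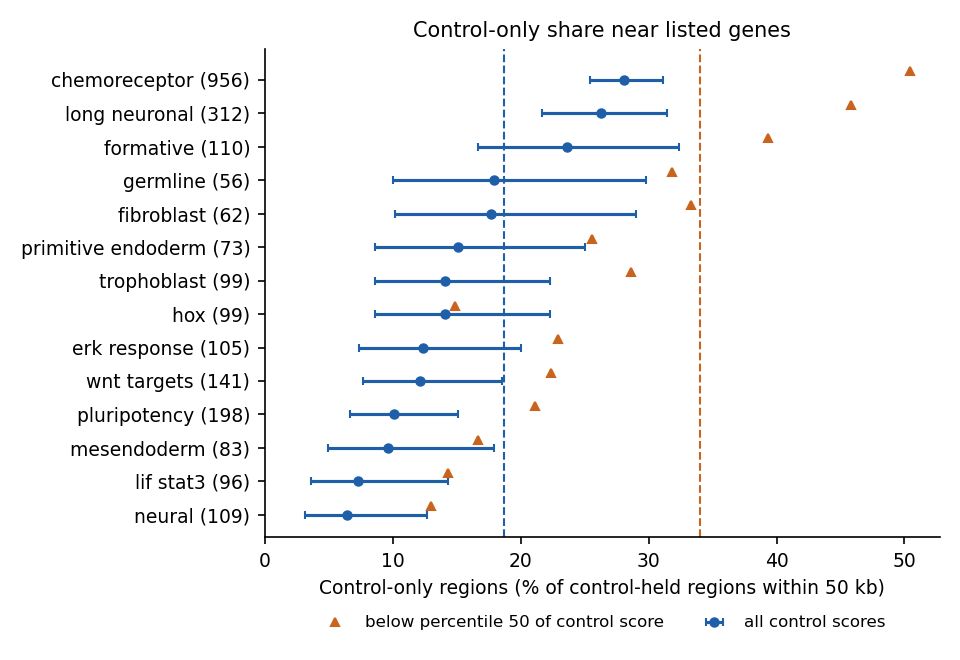
Control-only share of the control-held regions within 50 kb of listed genes (x axis, percent), with the number of control-held regions in brackets. Blue points are all scores with 95% Wilson intervals, orange triangles are regions below percentile 50 of the control score, and dashed lines mark 18.7% and 34.0% for all control-held regions. The 2-cell-like list, with 15 regions, is not drawn. Chemoreceptor and long neuronal genes lie right of both lines and neural genes farthest left.

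Promoter sequence was read where a control-only region overlapped a window from 250 bases before to 50 after a RefSeq start. There were 304 such windows of 280 genes, under 275 regions (2.07% of the control-only regions, against 26.5% for all 3 lists). The median was 7 CpG per window, as over all 32585 windows, against 21 in windows under regions of all 3 lists. CpG-rich windows were fewer than among all promoters: with at least 10 CpG there were 33.9% (28.8 to 39.4%), against 29.9% for Halo-Sox2a only, 85.9% for all 3 lists and 43.7% of all windows. The Ssbp4 and H2ac19 promoters printed above, with 35 and 36 CpG in the whole window, are thus the less common kind in this set.

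Short motifs were searched as exact letters on both strands of these 300-base windows. ACAAAG, a core of Sox factor sites, was in 21.4% of the windows (17.1 to 26.3%), against 18.8% of all windows and 41.0% (36.2 to 45.9%) of those under Halo-Sox2-only regions. ACAATG was in 9.21% (28 of 304 windows), against 12.2% and 27.1% (22.9 to 31.7%). The intervals for both Sox cores included the share over all windows and excluded that under Halo-Sox2-only regions. Windows under Halo-Sox2a-only regions held ACAAAG in 21.5% (17.1 to 26.8%), near the control-only share, and ACAATG in 14.6% (10.9 to 19.3%). The ACAAAG share therefore does not set control-only regions apart from those of Halo-Sox2a only. GGGCGG, the KLF and SP box, was in 34.5% (29.4 to 40.0%), against 35.9% of all windows and 66.5% under regions of all 3 lists. GGAATG, a TEAD core, was in 20.7% (16.5 to 25.6%), against 14.6% of all windows. Its share was 17.5% under Halo-Sox2a-only regions and 19.2% under regions of Halo-Sox2a and control, both within that interval. The composite SOX-OCT motif was in none of any class. Of the printed promoters, the Krtap28-13 window held ACAAAG, and those of Ssbp4, H2-T22, H2ac19 and Zfp42 held GGGCGG. A match is not a bound site. Control-only regions outside promoters, which are nearly all of them, were not searched.

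Among non-coding genes, control-only regions overlapped 4 of 1005 miRNA hairpins. The count was 6 for Halo-Sox2a only, 6 for Halo-Sox2a and control, 1 for Halo-Sox2 and control, 13 for Halo-Sox2 only, 8 for both proteins without the control and 108 for all 3 lists. The classes differ in size, with 4.18 Mb under control-only regions and 38.4 Mb under those of all 3 lists, so the counts are not compared. The hairpins under control-only regions were Mir291b, in the cluster of miRNAs typical of embryonic stem cells, Mir344-2, Mir432 and Mir6956, with control scores of 25, 59, 59 and 20.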

How the data were processed

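ATAC-seq peaks of 3 mouse libraries, 1 per group, were deposited as lists of chromosome, start, end, name and score. Each peak's score in the deposited lists is a whole number of the authors with no scale given, compared within a list only. The submitters' processing notes name the build mm10 and the tools STAR, SAMtools, MACS2 3.0.0a7, MACS3 and deepTools 3.3.0, with no role or order. Peaks were named per library. The depth is unknown, and Wilson 95% intervals on shares cover counting error only, among neighbouring regions that are not independent.

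Peaks overlapping by 1 bp or more were merged, coordinates were made 1-based, and percentiles and deciles of score were taken within the control list. Genes came from the RefSeq table of GRCm38.p6 (49550 on these chromosomes, 21627 protein-coding) and starts and sequences from the RefSeq promoter table of the same assembly, which covers 19 of the 20 chromosomes. The gene table lists no exons, so exonic and intronic regions were not separated. No genome sequence was used, so motifs were read in promoter windows only. Python 3.11.15, numpy 2.4.6, pandas 2.3.3 and scipy 1.17.1 were used, and the merging and counting were tested on simulated lists.

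The regions, gene lists and alternatives were chosen with earlier results of these data known. Named regions are the 10 with the highest control score and the 10 with the highest score at ends of protein-coding genes. Named genes are the 10 protein-coding genes with the most control-only regions inside and each listed gene with 3 or more within 50 kb. Some regions and genes that this rule names are not reported here. Named windows are the 5 of 1 Mb with the most and the 5 with the highest share. Zfp42, the remaining pluripotency genes, the 50 kb windows, the comparison of Cbfa2t2 with Dtwd2, the miRNA hairpins and the gene density around lists were picked with their values in view. With 1 library a group there was no test across replicates. The alternatives changed the overlap that counts as shared, the score threshold, the size of the lists, the chromosomes, the gene-end distance, the type of gene, the distance to listed genes and the window.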

Additional observations from a re-analysis of the deposited data

How the results depend on the processing

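The peak lists give no depth and no replicates, which limits every value to these 3 libraries. Settings that cut several lists by score rest on scores of unknown scale. No paired analysis was possible because each group had 1 library and no test was made. Of 94 alternatives, 48 left the value within its counting interval (counts within 1.5 times) and 46 moved it. Shares and distances have no sign, so none reversed.

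The settings that require 50% overlap count single control peaks, as shares of the 72595 control peaks, a unit unlike the 18.7% of control-held regions. With at least 50% of both peaks required, 21838 control peaks were control-only (30.1%), 12.9% at gene ends and 54.6% inside genes. They had a median percentile of 22.5 and lay a median of 1.38 kb from a transgene-line peak. Among control peaks from percentile 50 these values were 1385 regions (3.83% of control-held regions), 7.51%, 44.9%, 59.3 and 7.89 kb, and from percentile 75 they were 109 (0.602%), 3.67%, 39.4%, 78.7 and 8.54 kb. The last pair of settings keeps only higher scores, which fixes the percentiles. Lists of equal size, where only the transgene lists were cut, gave 23.8% of control-held regions, 10.7% at gene ends, 52.7% inside genes, percentile 22.5 and 7.45 kb. Peaks within 500 bp counted as shared gave 17.5%, 9.02% at gene ends, percentile 19.5 and 7.17 kb. With 50% of the shorter peak required the values were 20.1% of control peaks, 10.4% at gene ends and 5.16 kb. A score at least 2 times the lowest gave 17.9%, percentile 22.5 and 6.99 kb. The gene-end share was 18.3% at 2.5 kb, 4.58% for protein-coding genes only, which also gave 42.5% inside genes, and 10.7% where any base of the region within 1 kb counted. The cause was not tested beyond what the settings themselves fix. The share inside genes stayed below that of Halo-Sox2a only where both were computed, with 52.7% against 61.2% for lists of equal size.

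Near listed genes, 3 of 30 alternatives moved a share: chemoreceptor genes gave 32.9% within 20 kb and 23.9% within 100 kb, and fibroblast genes 9.09% within 20 kb. Of 11 motif shares, 6 fell outside their interval in the central 200 bases, among them ACAAAG at 14.8%, which is a shorter window.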

Other observations

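Gene families were grouped by the letters that open their symbols, a choice made after the data were seen, and control-held regions within 20 kb of their members were counted. Of 85 families with at least 20 genes and 40 control-held regions, 10 had a control-only share above the 18.7% of all control-held regions. Besides the vomeronasal (39.1%, 68 of 174) and olfactory receptors (31.4%, 140 of 446), the highest were cadherins of the Cdh series, which hold cells together (26.8%, 51 of 190; 95% Wilson interval 21.0 to 33.6%), C-type lectins (26.2%, 16 of 61; 16.8 to 38.4%), the Spata genes of spermatogenesis (23.4%, 30 of 128; 16.9 to 31.5%) and cytochrome P450 genes (21.9%, 37 of 169; 16.3 to 28.7%). The intervals for the lectin, Spata and cytochrome P450 genes include 18.7%. At the other end lay the Mfsd transporters (5.97%, 4 of 67; 2.35 to 14.4%), the Cox genes of mitochondrial respiration (7.84%, 8 of 102), the dual-specificity phosphatases Dusp (7.95%, 7 of 88) and the Abhd hydrolases (8.54%, 7 of 82). The ribosomal protein genes Rpl gave 9.44% (22 of 233) and the mitochondrial Mrpl genes 9.14% (17 of 186). The strength of the control peaks nearby differed between families, with a median control percentile of 67.5 for Mfsd, 60.8 for Cox and 46.4 for Olfr and Cdh. The Mmp genes, with a share of 8.70% (6 of 69; 4.05 to 17.7%), had a median of 51.2, and the Fgf genes, with 10.6% (12 of 113; 6.18 to 17.6%), one of 46.4. How the share varied with the median control percentile over the 85 families was not tested. Below control percentile 50 the shares were 20.0% for Mfsd (4 of 20) and 21.1% for Cox (8 of 38). They were 55.0% for Olfr (127 of 231) and 44.1% for Cdh (45 of 102), against 34.0% over all control-held regions. No intervals were computed for these shares, and the counts for Mfsd and Cox are too small to set them apart from 34.0%.

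On the scale of 5 Mb, 10 of 527 windows had a control-only share of at least 40%. The highest was at 90 to 95 Mb on chromosome 14, a window whose single protein-coding gene is the protocadherin gene Pcdh9, with 41 of 78 control-held regions (52.6%). On chromosome 8 the neighbouring windows at 50 to 55 Mb and 55 to 60 Mb had 61 of 130 (46.9%) and 55 of 129 (42.6%).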
